A study of Mus musculus with 18 samples.

Results

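Cultured mouse keratinocytes carrying a doxycycline-inducible form of miR-200 were compared after induction (3 ug/ml doxycycline for 24 hours, 3 libraries) and without induction (3 libraries of the same inducible cells, no doxycycline), which are 6 of the 18 libraries of the study. Each library came from 1 dish of confluent cells in E-low calcium medium, and low calcium is known to keep keratinocytes undifferentiated. The assay, CLEAR-CLIP, crosslinks Argonaute to RNA with ultraviolet light, precipitates Argonaute 2 and ligates each miRNA to the RNA it is paired with, so that 1 chimeric read names a miRNA and the position of its target. The labels do not say which family members the inducible construct carries or in which cell line it sits. No library had doxycycline without the inducible construct, so a difference due to the drug and one due to the induced miRNAs cannot be told apart. The libraries of a group were deposited as 1 pool with no library named per read. The induced pool held 419117 chimeric reads with 1481 miRNA names, against 314071 reads with 1373 names in the uninduced pool. Of these reads, 7.94% in the induced and 9.56% in the uninduced pool shared position, strand, miRNA and barcode with another pool of the same set. Each group is therefore 1 pooled sample: no test between groups was possible, and every interval in brackets is a 95% interval for counting error alone, which leaves out the spread between cultures.

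The miR-200 family consists of miR-200b, miR-200a and miR-429, made from 1 cluster on chromosome 4, and miR-200c and miR-141, made from another on chromosome 6. A miRNA guides Argonaute to transcripts that pair with its seed, bases 2 to 8, and the bound transcripts are repressed. The family is abundant in epithelia and is best known for holding down the transcription factors that drive epithelial cells into a mesenchymal state. Because members of both clusters share each seed, a transcript with a seed match can be bound by members of either cluster.

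The mature sequences (RefSeq, build GRCm38.p6, seed in capitals) are shown because the results turn on which member met a target while the seed stayed the same.
miR-200b-3p: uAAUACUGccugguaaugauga
miR-429-3p: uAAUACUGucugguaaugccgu
miR-200c-3p: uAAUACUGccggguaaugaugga
miR-200a-3p: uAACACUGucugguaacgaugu
miR-141-3p: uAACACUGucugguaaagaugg
The first 3 share a seed, and the last pair shares another that differs from it by U4C, counted from the 5′ end with the base of miR-200b first. Outside the seed, miR-200c differs from miR-200b by U11G and A22G and by its length of 23 against 22 bases, and miR-429 differs from miR-200b by C9U, A19C, U20C and A22U. Likewise miR-141 differs from miR-200a by C17A and U22G. On the minus strand, miR-200b-3p lies at chr4:156055685-156055706, miR-200a-3p at chr4:156054911-156054932 and miR-429-3p at chr4:156053916-156053937. On the minus strand of chromosome 6, miR-200c-3p lies at chr6:124718324-124718346 and miR-141-3p at chr6:124717917-124717938.

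Of the 5 guide strands, the 3 from chromosome 4 were higher after induction. The family held 9.04% of chimeric reads in the induced pool (8.95 to 9.13) and 6.68% in the uninduced pool (6.59 to 6.76), a ratio of 1.35 (1.33 to 1.38). miR-200b-3p had 10174 reads, 2.43% of the induced pool, against 3000 reads or 0.955% of the uninduced pool, a ratio of 2.54 (2.44 to 2.65). miR-429-3p made up 0.917% of the induced and 0.405% of the uninduced pool, 2.27 times as much (2.13 to 2.42). miR-200a-3p made up 0.573% and 0.263%, a ratio of 2.18 (2.01 to 2.36). All 3 rose by more than 2-fold, and the intervals of miR-429 and miR-200a overlap. In contrast, miR-200c-3p held 2.89% of induced and 2.79% of uninduced reads, a ratio of 1.04 (1.01 to 1.07), and miR-141-3p held 2.17% and 2.21%, a ratio of 0.980 (0.95 to 1.01). Summed over a cluster, the chromosome 4 members held 3.92% of induced and 1.62% of uninduced reads, 2.41 times as much (2.34 to 2.49), while the chromosome 6 members held 5.06% and 5.0%, a ratio of 1.01 (0.991 to 1.03). Of the 2.36 percentage points that the family gained, the chromosome 4 cluster held 97.1% and the chromosome 6 cluster 2.49%.

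**Figure D1:**
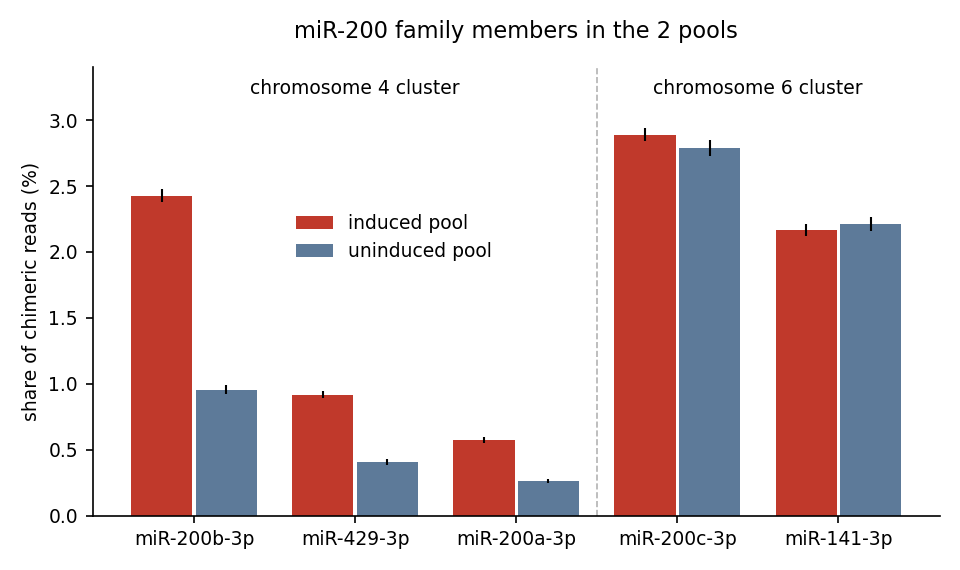
Share of all chimeric reads (vertical axis, percent) of each family member in the induced and uninduced pool. Bars are pooled shares and error bars are exact 95% counting intervals; miR-200b, miR-429 and miR-200a are 2.18 to 2.54 times higher in the induced pool, and miR-200c and miR-141 differ by at most 1.04 times.

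Among family reads, miR-200b made up 26.9% in the induced and 14.3% in the uninduced pool, and miR-200c 32.0% and 41.8%. miR-200c was the most abundant member in both pools. By seed, the AAUACUG group (miR-200b, miR-429, miR-200c) was 1.5 times higher in the induced pool (1.47 to 1.54), and the AACACUG group (miR-200a, miR-141), whose larger member is on chromosome 6, 1.11 times (1.08 to 1.14). The passenger arms were rare: miR-200b-5p had 70 induced and 24 uninduced reads (ratio 2.19, 1.36 to 3.63) and miR-200a-5p 20 and 5 (3.00, 1.09 to 10.2), whereas miR-141-5p had 160 and 121 (0.991, 0.778 to 1.27) and miR-200c-5p 12 and 17 (0.529, 0.231 to 1.18).

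The chimeric reads also held family hairpins as the target strand, which is RNA from the miRNA gene itself. The Mir200a hairpin had 20 target reads in the induced pool and 0 in the uninduced pool, where the exact interval reaches up to 0.00117% of reads. Mir200b had 41 and 14 target reads, a ratio of 2.19 (1.17 to 4.36), of which 20 and 4 were joined to miR-200b-3p itself. Mir429 had 20 and 20 (0.749, 0.383 to 1.47). Of the chromosome 6 hairpins, Mir141 had 41 and 75 target reads, a ratio of 0.410 (0.273 to 0.607), and Mir200c 24 and 27 (0.666, 0.368 to 1.20). These values stand against a lower level of miRNA gene targets in general, given below with the target classes.

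No abundant miRNA outside the family moved as far. A miRNA, gene or site was called higher or lower where its share differed at least 1.5-fold and the interval of the ratio excluded 1, with a minimum of 50 reads over both pools for other miRNAs. Of 273 other miRNAs, 12 were called (4.4%), 6 higher (2.2%) and 6 lower (2.2%), all with fewer than 200 reads, and none of the 175 with at least 200 reads differed 1.5-fold. Among the 119 with at least 500 reads, the ratios ran from 0.701 to 1.32 with an SD of 0.13 on the log2 scale. The interval alone excluded 1 for 61 of 273 (22.3%), so at this depth an interval that excludes 1 is common without a large difference.

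The lowest of these ratios belonged to miR-203-3p, the miRNA known for promoting epidermal differentiation, with 4067 induced and 4345 uninduced reads (0.970% and 1.38%; ratio 0.701, 0.672 to 0.732). Its passenger arm miR-203-5p was among the 6 called lower, with 67 and 95 reads (0.528, 0.381 to 0.730). The highest ratio was that of miR-3473d with 529 and 300 reads (1.32, 1.14 to 1.53). The most abundant miRNAs in both pools were miR-31-5p, which promotes keratinocyte proliferation, at 11.3% of induced and 11% of uninduced reads (ratio 1.03), and miR-21a-5p at 7.99% and 8.44% (0.946). After these came miR-125b-5p (4.41% and 4.56%), miR-27a-3p (3.83% and 4.03%) and miR-23a-3p (3.06% and 3.21%). The epithelial miR-205-5p held 2.24% and 2.56% (0.873, 0.847 to 0.900), miR-29a-3p 2.32% and 2.31%, let-7a-5p 2.10% and 2.14%, miR-183-5p 1.70% and 1.84% and miR-16-5p 1.78% and 1.73%. Ratios of these 10 miRNAs lay between 0.873 and 1.03.

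**Figure D2:**
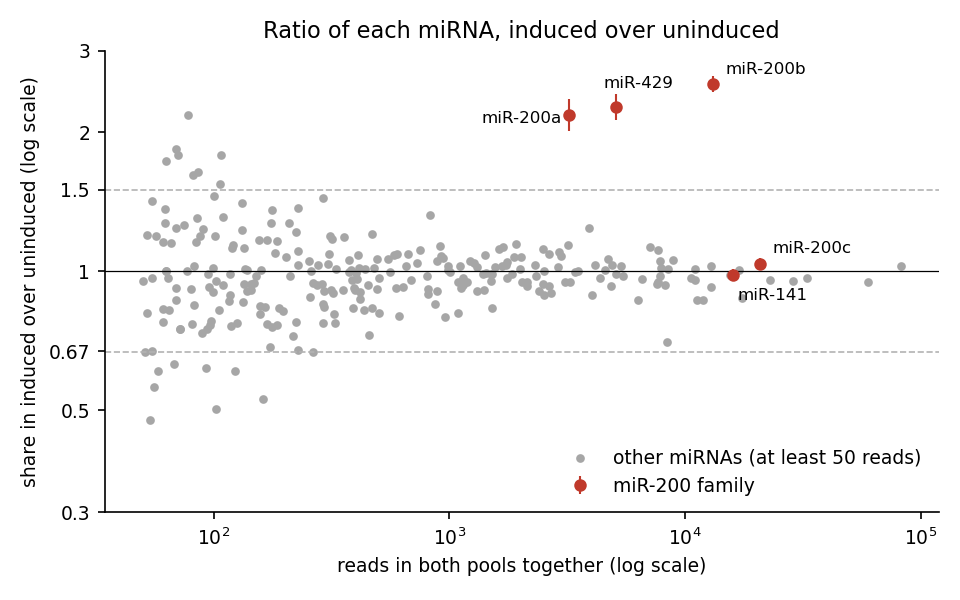
Ratio of shares, induced over uninduced (vertical, log scale), against reads in both pools (horizontal, log scale) for 273 miRNAs outside the family (grey) and the 5 family guide strands (red, bars are 95% counting intervals). Dashed lines mark 1.5-fold; the chromosome 4 members lie above 2, and no other miRNA with at least 200 reads passes 1.5-fold.

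Chimeras of each pool were set against targets marked in another pool, which does not single out the chimeras added on induction. In K14-Cre control keratinocytes of the other set of libraries, members with the AAUACUG seed marked 2839 distinct targets. Of distinct miR-200b chimeras, 15.7% in the induced pool (15.0 to 16.5; 1466 of 9316) and 18.6% in the uninduced pool (17.1 to 20.0; 520 of 2803) overlapped one of these on the same strand. For miR-429 the shares were 16.7% and 19.3%, and for miR-200c 18.5% and 19.0%. These shares lay well above those of miRNAs outside the family, of whose chimeras 4.92% in the induced and 5.46% in the uninduced pool overlapped the same targets. Family members with the other seed overlapped them in 3.83% and 4.39%. With the 1964 control targets of the AACACUG seed, miR-200a overlapped in 14.8% and 14.3% and miR-141 in 12.5% and 12.3%, beside 3.77% and 4.15% for miRNAs outside the family.

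At equal depth the family met similar numbers of genes. A chimera here is a distinct combination of target position, strand and miRNA, so that reads that differ only in barcode count once. There were 34261 family chimeras in the induced and 19114 in the uninduced pool. At least 2 chimeras lay on 3981 genes in the induced and 2776 genes in the uninduced pool. Thinned to 19114 chimeras, the induced pool would be expected to show 2829 such genes, 1.02 times the uninduced number. At 5 or more chimeras the numbers were 1871 and 1033 genes, with 1037 expected after thinning, and at 10 or more 807 and 332, with 349 expected. For the chromosome 4 members alone, genes with at least 2 chimeras numbered 2357 and 878, and for the chromosome 6 members 2847 and 2296; these numbers are not thinned. Of the genes with at least 2 chimeras, 2330 were the same in both pools, 58.5% of those in the induced and 83.9% of those in the uninduced pool. Some genes had chimeras in the induced pool and 0 in the uninduced pool. The most were on Npat and Adss with 14 each, and on Tmx4 and Bcap29 with 11 each. With 3 chimeras put in for the uninduced pool, the ratios were 2.60 and 2.05. These ratios are not lower bounds, because they leave out counting error in the induced counts. The genes lay below the minimum set for calling miR-200 target genes, and they were chosen after their values were seen.

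Among miR-200 target genes, the share of family chimeras on a gene was compared, so that the rise of the whole family cancels. The difference between the seeds does not cancel: by reads the AAUACUG group was 1.5 times and the AACACUG group 1.11 times higher. How far this shifted the ratios of single genes or sites bound mainly through 1 seed was not tested. Of 522 genes with at least 20 chimeras, 29 were called (5.56%), 11 higher (2.11%) and 18 lower (3.45%). The median ratio was 1.03, with quartiles of 0.779 and 1.38. Over the 15 genes with at least 100 chimeras it ran from 0.671 to 1.15, and all 15 lay within 1.5-fold.

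The deepest targets had similar shares in both pools. Neat1, a nuclear noncoding RNA that builds paraspeckles, had 477 induced and 266 uninduced chimeras (1.39% and 1.39% of family chimeras; ratio 1.00, 0.859 to 1.17). Scd2, a fatty acid desaturase, had 138 and 68 (1.13, 0.841 to 1.54), and Vldlr, a lipoprotein receptor, 74 and 39 (1.06, 0.709 to 1.60). Ahnak, a very large scaffold protein, had 130 and 88 (0.824, 0.624 to 1.09), Malat1 157 and 85 (1.03), Rbms1, an RNA-binding protein, 95 and 52 (1.02), and the chromatin protein Hmga2 73 and 37 (1.10). Perp, a desmosomal protein, had 67 and 41 (0.912) and the thrombin receptor Thbd 68 and 33 (1.15, 0.748 to 1.80). Rn18s-rs5, a pseudogene annotation that carries 18S ribosomal RNA sequence, had 393 and 301 (0.728, 0.625 to 0.849). Tnrc6a, the Argonaute partner that carries out repression, had 101 and 77 (0.732, 0.539 to 0.998), and Grip1 71 and 59 (0.671, 0.469 to 0.965). For these last 3 the interval lay below 1, but the ratio did not pass 1.5-fold. The other 8 of the 20 deepest genes (Ddx3y, Zfc3h1, Foxp1, Nrg1, Efna5, Gars, Wnk1 and Exoc4) had ratios from 0.694 to 1.42, with intervals that included 1.

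The 11 genes called higher were mostly thin. 2310047K21Rik had 18 induced and 2 uninduced chimeras (ratio 5.02, 1.20 to 44.6). Arhgef12 and Ric1, part of an activator of the Golgi GTPase Rab6, each had 22 and 3 (4.09, 1.23 to 21.4). Galnt3, which starts O-linked glycosylation, had 20 and 3 (3.72). Atxn1 had 37 and 7 (2.95, 1.30 to 7.84) and Serinc1 36 and 7 (2.87, 1.26 to 7.64). Ehbp1, which links endocytosis to actin, had 26 and 5 (2.90), the glycolytic regulator Pfkfb2 28 and 6 (2.60), the Rab5 inactivator Usp6nl 27 and 6 (2.51) and Ppp1r15b, which directs dephosphorylation of the translation factor eIF2 alpha, 30 and 7 (2.39). Lpp, a LIM protein of cell adhesions, named as the last of the 11, was the deepest, with 64 and 18 (1.98, 1.16 to 3.56). The intervals of these genes start between 1.02 and 1.3. With targets of at most 45 bases, an alternative chosen after seeing the data because target lengths differed between pools, 2 genes were called higher and 9 lower. Of the 20 genes named by ratio, 16 then had intervals that included 1, and 4 (Ppp1r15b, Zfp568, Acsbg1 and Mark3) did not.

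Of the 18 genes called lower, the largest difference was that of Zfp568, a zinc finger repressor, with 7 induced and 16 uninduced chimeras (0.244, 0.0849 to 0.627). Pthlh, the parathyroid hormone-related protein that keratinocytes secrete, had 7 and 13 (0.30, 0.101 to 0.81), the transcription elongation factor Aff4 9 and 15 (0.335) and the oxygen-sensing hydroxylase Egln3 8 and 13 (0.343). Acsbg1, an acyl-CoA synthetase, had 9 and 14 (0.359), while Cpne1, Septin7 and Mark3 each had 8 and 12 (0.372, 0.132 to 0.989). Dip2b had 13 and 18 (0.403) and the Golgi GTPase Arf4 11 and 15 (0.409). Trp63, the transcription factor that maintains the epidermal lineage, had 17 and 21 (0.452, 0.224 to 0.899) and Marcks, an actin-binding substrate of protein kinase C, 23 and 25 (0.513, 0.278 to 0.942).

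Setting each gene's miR-200 chimeras against those of other miRNAs on the same gene takes the rise of the family into the value. Family chimeras made up 9.90% of all distinct chimeras in the induced and 7.38% in the uninduced pool, an odds ratio of 1.38. Over the 518 genes with at least 20 chimeras of each kind the median odds ratio was 1.38, with quartiles of 1.06 and 1.85, and 408 of 518 lay above 1. Called were 50 genes (9.65%), 49 higher (9.46%) and 1 lower (0.193%). The interval lay wholly above the pool's odds ratio of 1.38 for 8 of the 518 genes and wholly below it for 19. Counting error alone would make about 1 in 20 such intervals miss the pool's value, and these counts together are near that rate. They therefore do not show that single genes differed from the pool's shift.

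Uba6, an enzyme that activates ubiquitin, had the most family chimeras among those named by odds ratio: 38 of its 54 chimeras in the induced pool were of the family (70.4%), against 14 of 42 in the uninduced pool (33.3%), an odds ratio of 4.75 (1.84 to 12.4). 2310047K21Rik stood at 34.6% and 6.25% (7.94, 1.64 to 74.7) and Arhgef12 at 15.9% and 3.49% (5.25). Ric1 stood at 29.7% and 8.33%, Tbc1d5 at 17.1% and 4.35%, the BMP receptor Bmpr1a at 17.4% and 4.94%, the mitotic kinase Nek7 at 20.4% and 5.97% and the poly(A) polymerase Papola at 15.9% and 4.55%. The intervals of Ric1, Bmpr1a, Nek7 and Papola started between 1.23 and 1.28, so they included the pool's odds ratio of 1.38. Those of Uba6, 2310047K21Rik, Arhgef12 and Tbc1d5 lay above it. Intervals missed the pool's value about as often as counting error alone would give, so these genes are not shown to exceed the pool's shift. Zfp568 was the 1 gene called lower, at 6.86% and 22.9% (0.249, 0.0819 to 0.693). Of the genes on which the family made up the largest part of all chimeras, Fez2 had 58.8% and 57.1%, the actin bundler Fscn1 57.1% and 50.0%, the vesicle coat protein Sec23a 53.5% and 50.0%, Alg13 51.9% and 48.4%, Lgalsl 56.8% and 43.6% and Dlc1 53.1% and 44.4%. The AP-1 subunit Jun had 67.6% and 46.2% (odds ratio 2.44, 0.752 to 7.98). Uba6 was also among these 8 genes; the intervals of the other 7 included 1 and were wide, so differences of the pool's size could not be told from none.

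Overlapping targets were joined into 33121 sites, of which 147 held at least 20 chimeras; all 147 had chimeras in both pools. Called were 7 sites (4.76%), 2 higher (1.36%) and 5 lower (3.4%). The interval alone excluded 1 for 8 of 147 sites (5.44%), again near the 1 in 20 missed by counting error alone. The site in Cfl2, which encodes the actin-severing cofilin of muscle, at chr12:54860707-54860794 (minus strand) had 19 induced and 3 uninduced chimeras (ratio 3.53, 1.04 to 18.6) and all of its chimeras had the AAUACUG seed. The site in Perp at chr10:18856376-18856502 (plus strand) had 24 and 5 (2.68), none of them with that seed. Without reads shared between pools of the set, neither site was called higher, and 4 sites were called lower. Lower were the sites in Cdk8, the Mediator kinase, at chr5:146260992-146261121 with 11 and 18 (0.341, 0.146 to 0.762), in Acsbg1 at chr9:54604883-54604945 with 9 and 13 (0.386) and in the decapping enzyme gene Dcp2 with 12 and 17 (0.394). The deepest sites of protein-coding genes stayed within 1.5-fold: Scd2 at chr19:44303236-44303357 had 95 and 39 chimeras (1.36, 0.927 to 2.03), Vldlr at chr19:27249356-27249439 66 and 34 (1.08), Tnrc6a at chr7:123194279-123194363 51 and 40 (0.711), Gars, a tRNA synthetase, at chr6:55065447-55065524 59 and 26 (1.27) and Thbd at chr2:148405286-148405468 49 and 20 (1.37). Positions are on mm10, each named site's targets have their midpoints in the RefSeq span of its gene, and exon and UTR boundaries were not used here.

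Members with 1 seed but different clusters could be told apart on single targets. Over all distinct chimeras with the AAUACUG seed, miR-200b and miR-429 together made up 54.7% in the induced pool (12813 of 23420) and 34.0% in the uninduced pool (3995 of 11745). Of 35 genes with at least 20 such chimeras in each pool, 33 had a higher part in the induced pool, with a median difference of 17.4 percentage points. Of 16 sites that met the same minimum, 15 were higher. Eif4g2, a translation factor, had the largest difference, with 23 of 29 chimeras from miR-200b or miR-429 in the induced pool (79.3%) and 7 of 22 in the uninduced pool (31.8%). The amino acid transporter Slc38a2 stood at 60.5% and 24.2%, Foxp1 at 60.6% and 25.0%, the membrane-actin linker Msn at 54.9% and 25.0%, the desmosomal cadherin Dsg3 at 51.4% and 22.7%, Neat1 at 48.4% and 31.0%, Tnrc6a at 45.2% and 26% and Scd2 at 64.2% and 44.1%. The exceptions were Cdk8, with 5 of 26 (19.2%) and 10 of 22 (45.5%), and the growth factor Nrg1, with 27 of 57 (47.4%) and 12 of 23 (52.2%). On both the intervals of the pools overlapped, as they did on Foxp1, Msn, Dsg3, Tnrc6a and Scd2.

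Within each pool this part ran from 5.26% to 65% over the 35 genes in the uninduced and from 19.2% to 79.3% in the induced pool. In the uninduced pool the interval lay wholly below the pool's own part for 2 genes and above it for 5. In the induced pool these were 5 and 2. On Vldlr most chimeras were of miR-200c in both pools: miR-200b and miR-429 supplied 15 of 74 chimeras (20.3%) in the induced and 2 of 38 (5.26%) in the uninduced pool. The Golgi protein Golim4 was similar, with 7 of 36 (19.4%) and 4 of 30 (13.3%). One site in Ahnak, at chr19:9004712-9004800, had 6 of 35 (17.1%) and 0 of 29, where the exact interval reaches up to 11.9%. At the other end, Usp25, a deubiquitinase, had 71.9% and 57.7%, the calcium pump Atp2a2 71.1% and 65.0%, the splicing factor Rbfox2 68.9% and 63.6% and Gars 66.7% and 56%. The induced intervals of Usp25, Atp2a2, Rbfox2 and Gars included the 54.7% of the whole induced pool. A second site in Ahnak, at chr19:9018398-9018587, was the 1 site that was lower in the induced pool, with 48.0% and 52.4%. With the other seed, miR-200a made up 20.9% of the chimeras in the induced pool (20.1 to 21.7) and 10.8% in the uninduced pool (10.0 to 11.5).

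**Figure D3:**
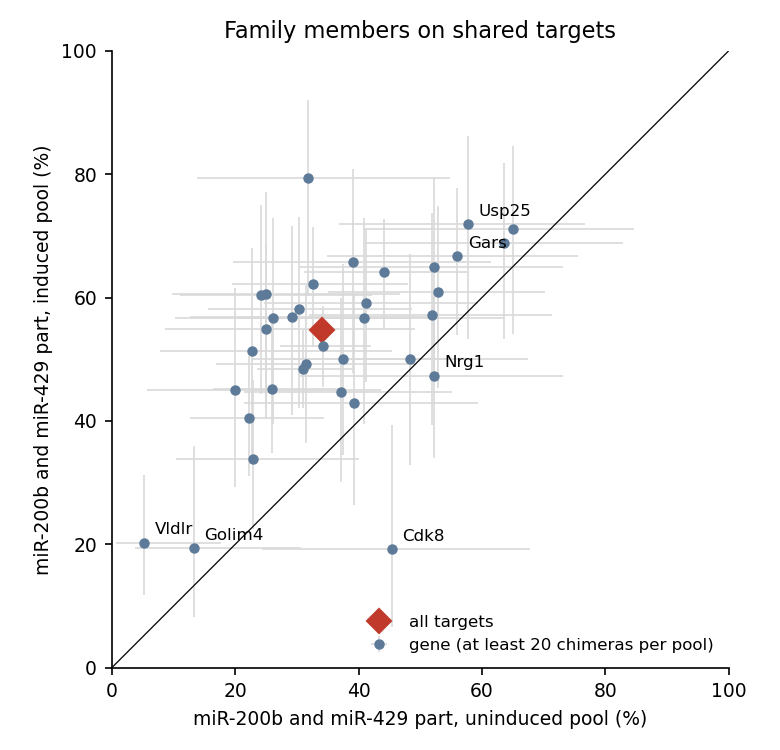
Part of miR-200b and miR-429 (percent) among chimeras with the AAUACUG seed on each of 35 genes, induced pool (vertical) against uninduced pool (horizontal), with exact 95% counting intervals. Points above the diagonal are higher in the induced pool, as are 33 of 35 genes and all targets together (red, 54.7% and 34.0%).

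Targets of all other miRNAs were compared by their share of reads outside the family, with a minimum of 50 reads per gene. A share of reads follows the amount of a transcript as well as its binding, and neither these nor fewer cells of a type and less RNA per cell can be told apart here. Of 2757 genes, 175 were called (6.35%), 91 higher (3.3%) and 84 lower (3.05%), with a median ratio of 1.02. The interval alone excluded 1 for 281 genes (10.2%).

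Lrrc32, a cell surface protein that holds latent TGF-beta, had the largest ratio, with 134 reads in the induced and 33 in the uninduced pool (3.12, 2.12 to 4.72). Most lay in 1 stretch at chr7:98501592-98501828, with 110 and 23 reads. The difference was largest for miR-15a, miR-15b and miR-16, which share a seed (RefSeq, seed in capitals) shown because their reads on Lrrc32 differed most.
miR-15a-5p: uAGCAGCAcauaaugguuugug
miR-15b-5p: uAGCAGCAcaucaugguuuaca
miR-16-5p: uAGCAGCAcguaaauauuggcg
These 3 were chosen after their values were seen. Together they gave 65 induced and 6 uninduced reads on Lrrc32 (ratio 8.33, 3.63 to 23.5), and all others 69 and 27 (1.96, 1.24 to 3.19). Over all targets their own shares hardly differed, with ratios of 1.03 for miR-15a, 1.03 for miR-15b and 1.03 for miR-16. With each position, strand and miRNA counted once, Lrrc32 had 99 and 30 chimeras of all miRNAs outside the family (2.54, 1.67 to 3.96). Target parts on Lrrc32, as over all targets, were longer in the induced pool. On this gene 54.5% against 24.2% were over 45 bases. With targets of at most 45 bases the ratio of reads was 2.10 (1.30 to 3.49).

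Another 11 genes were named for a higher share. Serpinb2, an inhibitor of plasminogen activators, had 126 and 43 reads (2.25, 1.58 to 3.26), with 27 and 7 from miR-183-5p. Myadm, a membrane protein, had 165 and 62 (2.05, 1.52 to 2.79), of which miR-182-5p gave 34 and 9. F3, tissue factor, which starts coagulation, was the deepest with 296 and 122 (1.87, 1.51 to 2.32); miR-19b-3p gave 54 and 15 of these and miR-19a-3p 21 and 2, while miR-20a-5p gave 23 and 26. Serpinh1, the collagen chaperone, had 83 and 32 (1.99, 1.31 to 3.10), and the collagen gene Col4a2 76 and 33 (1.77, 1.16 to 2.75). On Col4a2, miR-29a-3p, a known regulator of collagens, gave 18 and 2 reads. Il6st, the signalling chain of interleukin-6 type receptors, had 85 and 35 (1.87), 17 and 4 of them from miR-21a-5p. The cargo receptors Tmed7 and Tmed5 had 100 and 43 (1.79) and 103 and 48 (1.65), the membrane protease Rhbdd1 94 and 39 (1.85), the reticulophagy receptor Retreg1 88 and 37 (1.83) and the histone reader Phf20l1 121 and 51 (1.82). The part of reads over 45 bases was larger in the induced pool for each of the 12 genes except Retreg1, with 30.7% and 35.1%. This was not particular to them: over all reads the median was 39 against 37 bases, with 14.9% against 6.88% over 55 bases. With targets of at most 45 bases the interval of Col4a2 included 1 (1.29, 0.765 to 2.21), and the other 11 kept intervals above 1.

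The 12 genes named for a lower share included 3 miRNA hairpins. Sprr1b, a precursor of the cornified envelope, had 31 induced and 72 uninduced reads (0.331, 0.210 to 0.511), with 19 and 41 from miR-31-5p. Krt16, a keratin of stressed and hyperproliferative epidermis, had 67 and 94 (0.548, 0.394 to 0.758). Endou, an endoribonuclease of differentiating keratinocytes, had 51 and 72 (0.545, 0.373 to 0.790), with 31 and 41 from miR-23a-3p. Pthlh, also lower among miR-200 targets, had 58 and 79 (0.564, 0.395 to 0.802). Tsc22d1, a TGF-beta-stimulated transcription factor, had 46 and 69 (0.513), Ccdc71l 59 and 83 (0.547), the mitochondrial protein Fam162a 61 and 85 (0.552) and the Cdc42 inactivator Arhgap21 52 and 69 (0.579). Cntnap5b had 45 and 60 (0.577), nearly all on the strand opposite to the gene. Among hairpins, Mir27a had 65 and 114 (0.438), Mir31 152 and 231 (0.506) and Mir182 44 and 61 (0.555), the last with 42 and 56 reads of miR-182-5p itself. With targets of at most 45 bases Tsc22d1 had a ratio of 0.660 (0.406 to 1.06). With each position counted once, the intervals of Mir27a (0.657, 0.406 to 1.06) and Mir182 (0.524, 0.253 to 1.06) included 1.

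**Figure D4:**
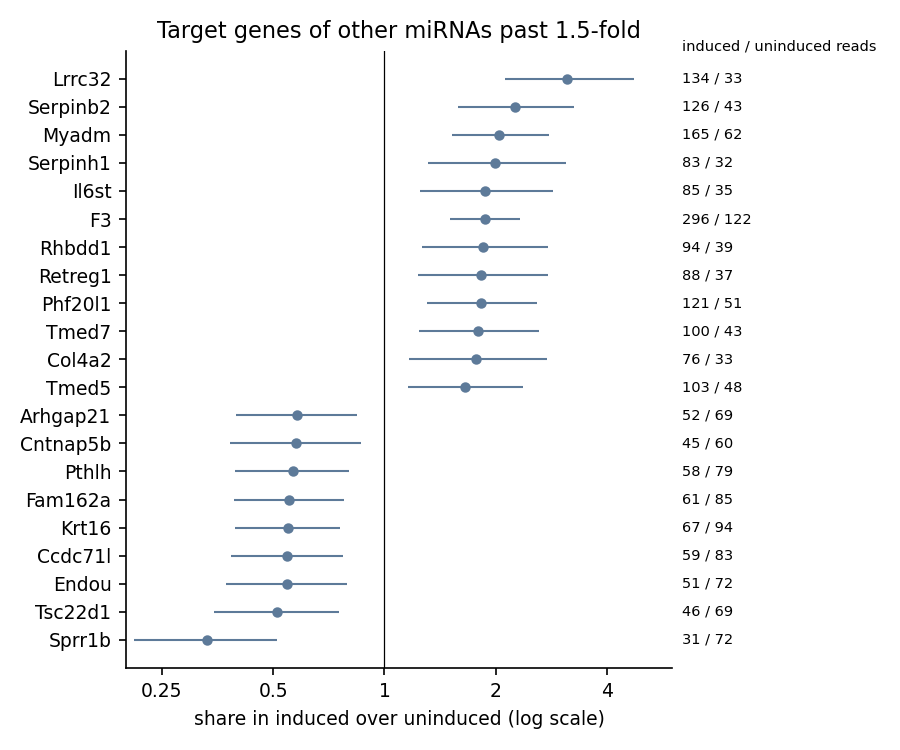
Ratio of shares, induced over uninduced (horizontal, log scale), of the 21 named target genes of other miRNAs that are not hairpins, with 95% counting intervals and read numbers at the right. The 12 genes above 1 run from Lrrc32 (3.12) to Tmed5 (1.65), and the 9 below 1 from Arhgap21 (0.579) to Sprr1b (0.331).

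**Figure D5:**
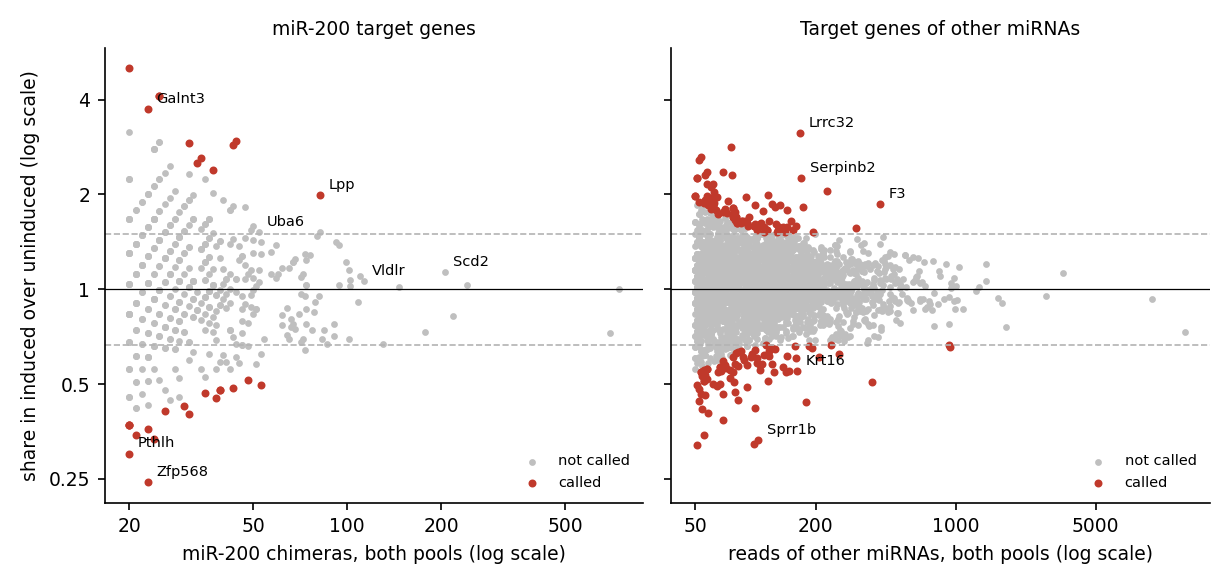
Ratio of shares, induced over uninduced (vertical, log scale), against counts in both pools (horizontal, log scale) for 522 miR-200 target genes (left, chimeras) and 2757 target genes of other miRNAs (right, reads). Called genes are red and dashed lines mark 1.5-fold; on the left, the 15 genes with at least 100 chimeras all lie between 0.671 and 1.15.

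Reads of other miRNAs on miR-200 target genes were compared to see whether these genes lost reads where the family was higher. Targets were taken from the K14-Cre control pool of the other set, which the ratio does not use. Of 138 genes with at least 5 family chimeras there, 130 had enough reads, and their median ratio was 0.984, beside 1.02 for all 2757 genes and 1.03 for the 1351 genes with no family chimera there. Among the 130, 69 (53.1%) lay below 1, beside 46.5% of all genes; 1 of the 130 was called higher and 2 lower, beside 3.3% and 3.05% of all genes. With at least 2 chimeras the median over 722 genes was 1.01, and with at least 10 over 26 genes 0.975.

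By class, family targets were protein-coding genes in 88.3% of induced and 87.4% of uninduced chimeras and noncoding RNAs in 3.29% and 3.18%. On genes with 1 known strand, 98.3% and 98.2% of family chimeras were sense. miRNA genes stood apart: they held 0.239% of induced and 0.429% of uninduced family chimeras (0.558, 0.406 to 0.767) and 0.365% and 0.564% of those of other miRNAs (0.647, 0.597 to 0.701). By reads, a miRNA joined to its own hairpin was at 0.713 (0.664 to 0.766) and to another hairpin at 0.521 (0.480 to 0.566). The target parts differed in length between pools, with a median of 39 bases in the induced and 37 in the uninduced pool, and 14.9% against 6.88% over 55 bases. The ratio of miRNA gene targets was also below 1 among targets of 20 to 25 bases alone (0.623, 0.578 to 0.671) and of 36 to 45 bases (0.851, 0.773 to 0.938). The family's own ratio was 1.32 to 1.46 in each of 5 length classes.

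Gene lists gave little for regulators of epithelial-mesenchymal transition. Zeb1 and Zeb2, the best known miR-200 targets, had 1 and 0 family chimeras in the induced pool and none in the uninduced pool. Reads of other miRNAs were as few, with 0 and 0 on Zeb1 and 4 and 0 on Zeb2, so neither gene could be measured. Snai1, Twist1, Vim and Foxc2 had no family chimeras and no other reads in either pool. The 12 genes of that list together had 36 induced and 12 uninduced family chimeras (1.67, 0.851 to 3.53) and 220 and 129 reads of other miRNAs (1.31, 1.05 to 1.64). Cdh2, N-cadherin, supplied 15 and 1 of the chimeras, Tgfbr1 8 and 5, Snai2 8 and 6 and Tgfb2 4 and 0. None of the list reached 20 family chimeras, and of 3 with enough reads of other miRNAs none was called. The 25 commonly cited miR-200 targets had 271 and 131 family chimeras (1.15, 0.933 to 1.43); 6 could be measured and none was called. Its deepest members were Msn with 58 and 22 (1.47, 0.887 to 2.52), Sec23a with 53 and 38 (0.778), Cfl2 with 46 and 21 (1.22) and Dlc1 with 17 and 12 (0.790).

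Among the keratinocyte lists, the lower sum of the differentiated list rested on 2 related genes. The 12 differentiated keratinocyte genes had 116 induced and 168 uninduced reads of other miRNAs (0.531, 0.415 to 0.677); the 2 that could be measured, Sprr1b and Sprr1a (23 and 46; 0.384, 0.222 to 0.647), were both called lower, beside 3.05% of all genes. Without Sprr1a and Sprr1b, an alternative chosen after seeing the data, the other 10 genes had 62 and 50 reads (0.953, 0.646 to 1.41), with Klf4, a differentiation factor, at 24 and 16 (1.15, 0.588 to 2.32). Krt1, Krt10, Flg and Tgm3 had no reads in either pool. The 9 basal keratinocyte genes had 1144 and 1069 reads of other miRNAs (0.823, 0.756 to 0.895) and 80 and 65 family chimeras (0.687, 0.489 to 0.968). With targets of at most 45 bases these chimeras had a ratio of 0.808 (0.540 to 1.22). In that list Trp63 had 188 and 203 reads of other miRNAs (0.712, 0.581 to 0.873), Krt14 129 and 139 (0.714, 0.557 to 0.913) and Col17a1 163 and 163 (0.769, 0.615 to 0.961), but Krt5 had 160 and 127 (0.969, 0.763 to 1.23), Itgb4 42 and 32 (1.01, 0.622 to 1.65) and Lamb3, below the minimum, 26 and 18 (1.11, 0.586 to 2.15). Of this list 7 could be measured by reads and none was called.

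Family chimeras on 17 adherens junction and desmosome genes numbered 304 and 153 (1.11, 0.910 to 1.36), with Perp, Dsg3 (39 and 25), Afdn (32 and 13) and Dsc3 (26 and 14) the deepest. Actin cytoskeleton genes had 218 and 111 (1.10), focal adhesion genes 155 and 95 (0.910), lipid synthesis and uptake genes 306 and 175 (0.976), chromatin repressors 139 and 71 (1.09), cell cycle genes 86 and 44 (1.09), vesicle coat genes 94 and 59 (0.889) and stress response genes 62 and 26 (1.33, 0.829 to 2.19). The small RNA machinery had a ratio of 0.796 (0.629 to 1.01), and of its chimeras Tnrc6a made up 101 and 77 and Ago2 29 and 17. Over the reads of other miRNAs, Ptk2, the focal adhesion kinase, was called lower with 52 and 65 (0.615, 0.419 to 0.900) and Hmox1, heme oxygenase, higher with 43 and 18 (1.84, 1.04 to 3.38). They were 1 of 15 measured focal adhesion genes and 1 of 8 measured stress response genes. No other member of the lists of this paragraph was called by these reads, beside 6.35% of all 2757 genes. In no list of this paragraph did the interval of the summed family chimeras exclude 1. By summed reads of other miRNAs, lipid synthesis and uptake genes had 1457 and 1246 (0.899, 0.833 to 0.970) and the small RNA machinery 1263 and 887 (1.09, 1.004 to 1.19), both with intervals that exclude 1 at a small difference, while those of the other lists of this paragraph included 1.

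Markers were set against the labelled cell type. The 10 keratinocyte markers had 1501 induced and 1341 uninduced reads of other miRNAs (0.861, 0.799 to 0.927). Fibroblast markers had 11 and 10 reads, all on Pdgfra, with Col1a1, Col1a2, Col3a1, Dcn and Lum at 0 in both pools. Melanocyte markers had 15 and 7 reads, immune markers 1 and 0 and endothelial markers 7 and 8. Markers of those other cell types were thus at or near 0 beside those of keratinocytes. A transcript without a bound miRNA gives no read, so these counts are not expression levels.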

How the data were processed

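Chimeric reads were measured in keratinocytes by CLEAR-CLIP, with irradiation at 300 mJ/cm2 and 254 nm and ligation on beads, per the labels' protocols. The deposited files hold no counts: the authors list 1 line per chimeric read, with the target's position and its miRNA. Cutadapt, Novoalign, bedtools and build mm10 are named, per the submitters' processing notes; versions and settings are not given in the sources used here. No read names its library, so the planned tests between libraries could not be made and each group was 1 pool.

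Reads were counted with Python 3.11.15, pandas 2.3.3, NumPy 2.4.6 and SciPy 1.17.1. A target was given to the gene whose mm10 RefSeq span held its midpoint. Other miRNAs and their target genes needed 50 reads, and miR-200 genes and sites 20 chimeras. Calls needed a 1.5-fold ratio and a 95% interval that excluded 1. Shares have Clopper-Pearson and ratios exact conditional intervals, which cover counting error only. For genes with 0 chimeras in the uninduced pool, 3 chimeras were put in to give a ratio.

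Named were the 10 most abundant other miRNAs, the 20 deepest miR-200 genes and the 10 called each way with the largest ratio. By part of their own chimeras, the 8 called each way and the 8 with the largest part were named. Likewise named were the 10 deepest sites and the 6 called each way, the 12 genes of other miRNAs called each way with at least 100 reads, and the 4 deepest members of a list. Called other miRNAs needed 200 reads to be named, which none had, so miR-203 and miR-3473d, like the genes of the make-up comparison, Trp63, Marcks and Lpp, were chosen after their values were seen. So were the miRNAs named on single target genes of other miRNAs, such as miR-15a, miR-15b and miR-16 on Lrrc32. The comparison, its members and the gene lists were chosen with earlier results of these data known. Scripts were tested on simulated data. Alternatives changed the minimum, the fold, repeated reads, reads shared between pools of the set, target length and strand.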

Additional observations from a re-analysis of the deposited data

How the results depend on the processing

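No paired analysis was possible because no read names its library, and leaving out a replicate was not possible for the same reason. Counts of calls moved with the thresholds. Of other miRNAs (12 called), 23 were called with a minimum of 20 reads, 0 with 200, 2 at 2-fold, 61 with no fold, 5 with each position counted once and 7 with the guide arm alone. Target genes of other miRNAs (175) numbered 303 and 9 at those minimums, 37 at 2-fold and 281 with no fold. For miR-200 genes (29), 51 were called with a minimum of 10 chimeras, 2 with 50, 168 by fold alone and 47 with every read. For parts of a gene's own chimeras (50) these were 89, 14, 251 and 80, and for sites (7) 20, 0, 46 and 26. Without reads shared between pools of the set 4 sites were called. With targets of at most 45 bases, chosen after seeing the data, 11 miR-200 genes, 25 parts and 2 sites were called, and the basal keratinocyte list's chimeras had a ratio of 0.808. On the sense strand only, also chosen after seeing the data, 18 miR-200 genes were called.

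Taken among family reads, the AACACUG seed was at 0.818, the chromosome 6 cluster at 0.747 and miR-200c-3p at 0.766, below 1 by construction as the other cluster gained. Without Sprr1a and Sprr1b, also chosen after seeing the data, the differentiated keratinocyte list was at 0.953. Another 81 alternative values of the comparisons stayed near the main value, by a rule that differed by kind. Intervals of ratios stayed on the same side of 1, or still included 1 where the main one did. Counts of calls stayed within 1.5-fold of the main count, and medians and differences within the main interval. For named genes the interval alone was checked, without the 1.5-fold rule. Of 24 named target genes of other miRNAs, 24 kept an interval on the same side of 1 without those shared reads. With targets of at most 45 bases 22 did, and with each position counted once 22. On the sense strand 15 of 16 did, Cntnap5b being the exception. Of 20 miR-200 genes named by ratio, 17 kept such an interval without those shared reads (Arf4, Septin7 and Usp6nl did not). With every read 19 did (Ppp1r15b did not), and with targets of at most 45 bases 4. Small counts limit miR-200 genes and sites, and the spread between cultures is unknown.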

Other observations

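Genes induced by hypoxia were gathered in a list of 27 after Fam162a and Egln3 had been seen to be lower, so the list is no independent evidence. Of these, 26 had reads of other miRNAs, 844 in the induced and 811 in the uninduced pool, a ratio of shares of 0.80 (0.726 to 0.882). Without those 2 genes, an alternative chosen after seeing the data, the ratio was 0.842 (0.758 to 0.936). Ddit4, already counted in the stress response list, stayed among the rest, so the shorter list is no independent evidence either. Among the remaining 10 with at least 50 reads, 7 had ratios below 1, beside 46.5% of all genes, and the median was 0.876, beside 1.02. The interval lay below 1 for 2 of the 10 (Ndrg1 and Ddit4), and it excluded 1 in either direction for 10.2% of all genes. Bhlhe40, a circadian repressor below that minimum, went the other way with 22 and 5 reads (3.38, 1.25 to 11.4). Fam162a was at 0.552 and Ndrg1, a stress-induced differentiation gene, at 0.615, Ddit4, an inhibitor of mTOR, at 0.707 and the growth factor Vegfa at 0.719. The glucose transporter Slc2a1 was at 1.09, Hk2, which starts glycolysis, at 1.20 and the peptide hormone Adm at 1.22. miR-210-3p, the miRNA known for its induction by hypoxia, had 566 and 523 reads, a ratio of 0.811 (0.719 to 0.915).

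Ppm1f, a phosphatase among the cited miR-200 targets, was below the minimum with 16 induced and 2 uninduced family chimeras, beside 10 and 18 reads of other miRNAs. Arhgap21, lower for other miRNAs, had 12 and 1 family chimeras. The Mir200a hairpin, with 20 and 0 target reads, was joined to miR-21a-5p in 12 and 0 of them, and Mir141 to the same miRNA in 20 and 39.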
